A study of Homo sapiens with 4 samples.

Results

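The interleukin-1 (IL-1) family genes and receptors described here are 8 genes: the ligands IL33, IL1A, IL1B and IL18, the receptor antagonist IL1RN, and the receptor chains IL1R1, IL1RL1 and IL1RAP. They were taken as every probe set annotated to one of these genes alone, which gave 19 of the 54675 probe sets on each array. Of the 8 genes, 7 had a probe set at a log2 level of 6 or more on at least 1 array, and 6 is used below as the lower limit of a measurable level. IL1RN had none. The arrays name 19775 genes by such probe sets, and 12365 of them reached that level.

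IL-1 alpha and IL-1 beta, the products of IL1A and IL1B, bind the receptor chain encoded by IL1R1, which signals after it pairs with the accessory chain encoded by IL1RAP. IL-33 signals through ST2, the product of IL1RL1, which pairs with the same accessory chain. The pathway then runs through MYD88 and IRAK kinases to NF-kB, and is known in breast tumours for driving inflammatory cytokines and chemokines. IL-18 has a separate receptor pair and, like IL-1 beta, is cut to its active form by caspase-1.

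Expression was measured on Affymetrix arrays in SUM159 cells that carry pTRIPZ-mir-100, from which doxycycline switches on the microRNA miR-100. SUM159 is an established line from a human breast carcinoma, mesenchymal in character and without hormone receptors. The cells were sorted by flow cytometry for aldehyde dehydrogenase (ALDH) activity, a property used to enrich stem-like breast cancer cells, and cultured in suspension. The 4 groups, with 1 array each, were ALDH-positive cells with DOX, ALDH-positive control cells without it, ALDH-negative cells with DOX and ALDH-negative control cells without it. All groups carry the construct, and cells without it that received DOX were not analysed here. The sample titles and treatment protocol name doxycycline for 10 h, whereas the sample descriptions name doxorubicin and 13 h, so DOX is used here as the label of the treated groups. The stated question was which genes miR-100 targets in stem-like and in other cells. With 1 array a group, a difference between 2 arrays is given as a size, without a p-value or a check by replicates. The mature microRNA that the construct encodes is shown here because it defines the treatment. Its sequence is from RefSeq (GRCh38.p14, chr11:122152275-122152296, minus strand), with the seed, bases 2 to 8, in capitals. These arrays do not measure it.
hsa-miR-100-5p: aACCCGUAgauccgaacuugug

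The arrays carried the markers of the labelled cell line. VIM, CD44, AXL and FN1, 4 genes of mesenchymal SUM159 cells, had log2 levels of 11.22 to 13.79, and ESR1 and PGR, the hormone receptors, stayed under 6 on all 4 arrays. Of 7 endothelial markers, PECAM1 and KDR reached 6, while CDH5, VWF, TEK, TIE1 and ESAM did not. PECAM1, like IL33, was lower in ALDH-positive cells, at 7.56 with DOX and 5.96 in control, against 9.62 and 9.77 in ALDH-negative cells. KDR went the other way, at 7.53 and 8.21 in ALDH-positive DOX and control cells, against 4.77 and 5.13 in ALDH-negative DOX and control cells. The log2 of the summed level of the 7 endothelial markers was 8.91 and 8.89 in ALDH-positive DOX and control cells, against 9.86 and 10.01 in ALDH-negative DOX and control cells. In ALDH-negative cells PECAM1 made up most of this sum. The part of the endothelial markers in the results was not tested. The immune markers PTPRC, CD3D, CD14, LYZ, AIF1 and FCER1G were under 6 on all 4 arrays, and MS4A1 reached 6.21 on the ALDH-positive DOX array only. Of the mast cell markers, KIT, CPA3 and HDC were under 6 on all arrays, and TPSAB1 lay at 5.87 to 6.20. Of 5 keratinocyte markers KRT10 and KRT5 reached 6, and KRT14, KRT1 and EPCAM did not. The DOX and control arrays correlated with r = 0.983 in ALDH-positive cells and r = 0.996 in ALDH-negative cells over all probe sets. In cell populations, fewer cells of a kind and less RNA per cell cannot be told apart.

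The sequences just upstream of 4 of the genes are shown because these genes carry the differences described below: IL33, which was lower in ALDH-positive cells, IL1A and IL1B, which were lower with DOX in ALDH-positive cells, and IL1RL1, the receptor of IL-33. Each is the 250 bases before the first annotated start, from RefSeq (GRCh38.p14), on the strand of the gene. RefSeq windows were found for 7 of the 8 genes, 15 in all. IL33 lies at chr9:6214899-6215148 (plus strand), IL1A at chr2:112784494-112784743 (minus strand), IL1B at chr2:112836780-112837029 (minus strand) and IL1RL1 at chr2:102311313-102311562 (plus strand). Capitals mark matches on either strand to the AP-1 motif TGANTCA or the TATA box TATAAA.
IL33: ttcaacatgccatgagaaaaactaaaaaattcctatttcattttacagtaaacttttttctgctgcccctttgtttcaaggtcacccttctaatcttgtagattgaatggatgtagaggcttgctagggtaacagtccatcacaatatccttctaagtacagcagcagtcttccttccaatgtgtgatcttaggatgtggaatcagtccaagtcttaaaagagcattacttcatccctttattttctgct
IL1A: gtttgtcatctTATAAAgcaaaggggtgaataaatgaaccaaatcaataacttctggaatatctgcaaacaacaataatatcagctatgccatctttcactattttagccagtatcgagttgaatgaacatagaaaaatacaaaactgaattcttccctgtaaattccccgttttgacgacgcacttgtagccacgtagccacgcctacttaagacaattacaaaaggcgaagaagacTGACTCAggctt
IL1B: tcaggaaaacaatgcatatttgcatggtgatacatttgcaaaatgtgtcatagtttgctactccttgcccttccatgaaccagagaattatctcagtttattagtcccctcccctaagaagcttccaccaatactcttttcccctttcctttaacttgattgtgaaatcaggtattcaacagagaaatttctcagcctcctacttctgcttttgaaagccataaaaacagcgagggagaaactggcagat
IL1RL1: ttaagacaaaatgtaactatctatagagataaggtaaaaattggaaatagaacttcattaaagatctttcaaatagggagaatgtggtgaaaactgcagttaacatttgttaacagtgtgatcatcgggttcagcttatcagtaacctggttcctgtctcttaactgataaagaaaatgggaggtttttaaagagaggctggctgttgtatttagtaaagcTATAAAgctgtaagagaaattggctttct

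In these windows IL1A held an AP-1 match at bases -12 to -6 and a TATA match at -239 to -234, counted from the start, and IL1RL1 a TATA match at -29 to -24. The printed IL33 and IL1B windows held neither. AP-1 was found in 4 of the 15 windows, against 6.57% of all 35116 RefSeq windows of the same length, and the TATA box in 4 of the 15, against 10.7%. The 15 windows overlap in part, so that 1 AP-1 match of IL1A counts in both of its windows. The cyclic AMP response element TGACGTCA, present in 1.65% of all windows, and the NF-kB consensus, present in 5.21%, were in 0 of the 15. A match is a description of the letters and not a binding site. The second windows of IL33, IL1A and IL1RL1, and the IL1RN, IL1R1 and IL1RAP windows, are not printed. The second IL1A window held AP-1 matches at -105 to -99 and -55 to -49. That of IL1RL1 held an AP-1 match at -191 to -185, and that of IL33 held no match.

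IL33 was lower in ALDH-positive cells, where it stayed under the limit. It encodes an alarmin of the nucleus that acts as a cytokine once released. Its 1 probe set read a log2 level of 4.96 in ALDH-positive DOX cells and 4.24 in ALDH-positive control cells, both under 6, against 9.71 in ALDH-negative DOX cells and 7.57 in ALDH-negative control cells. IL33 was therefore measurable in ALDH-negative cells alone, and higher there with DOX, by 2.14 on the log2 scale or 4.42-fold. The difference between ALDH-positive and ALDH-negative cells was -4.75 with DOX and -3.33 in control. Counted from a level of 6, it was at least 13.1-fold lower with DOX and at least 2.97-fold lower in control. The 0.72 between DOX and control in ALDH-positive cells lies under the limit and gives no direction.

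IL1A and IL1B are the agonists of IL1R1. IL1A read 8.56 in ALDH-positive DOX cells and 10.86 in ALDH-positive control cells, and 8.90 in ALDH-negative DOX cells and 8.16 in ALDH-negative control cells, on probe set 210118_s_at. The ALDH-positive control array stood above the other 3, and with DOX the gene was 4.91-fold lower in ALDH-positive cells. This probe set is of a kind that can hybridise to several transcripts, and the other IL1A probe set, 208200_at, stayed at 4.47 to 5.85, under the limit on all arrays. So the IL1A values rest on 1 probe set of the shared kind.

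IL1B was read by 2 probe sets that moved together. On 39402_at it was at 7.35 in ALDH-positive DOX cells and 8.89 in ALDH-positive control cells, and at 9.38 in ALDH-negative DOX cells and 8.46 in ALDH-negative control cells. On 205067_at the levels were 6.42 and 8.24 in ALDH-positive DOX and control cells, and 8.79 and 7.87 in ALDH-negative DOX and control cells. Both put the ALDH-positive DOX array lowest and the ALDH-negative DOX array highest. With DOX, IL1B was lower by 2.91-fold and 3.54-fold in ALDH-positive cells and higher by 1.90-fold and 1.89-fold in ALDH-negative cells, the second pair being short of the 2-fold used as a call.

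IL18 went the other way from IL33. It read 11.39 in ALDH-positive DOX cells and 11.06 in ALDH-positive control cells, against 9.46 in ALDH-negative DOX cells and 9.56 in ALDH-negative control cells. Both ALDH-positive arrays stood above both ALDH-negative arrays, by 3.82-fold with DOX and 2.83-fold in control. DOX and control differed by 0.33 in ALDH-positive cells and by -0.10 in ALDH-negative cells on the log2 scale, short of a call in both.

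IL1RN, which encodes the antagonist that occupies IL1R1 without signalling, was not measurable in any group. Its 5 probe sets lay between 3.54 and 5.48 on all 4 arrays, so that no difference is given for it.

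**Figure D1:**
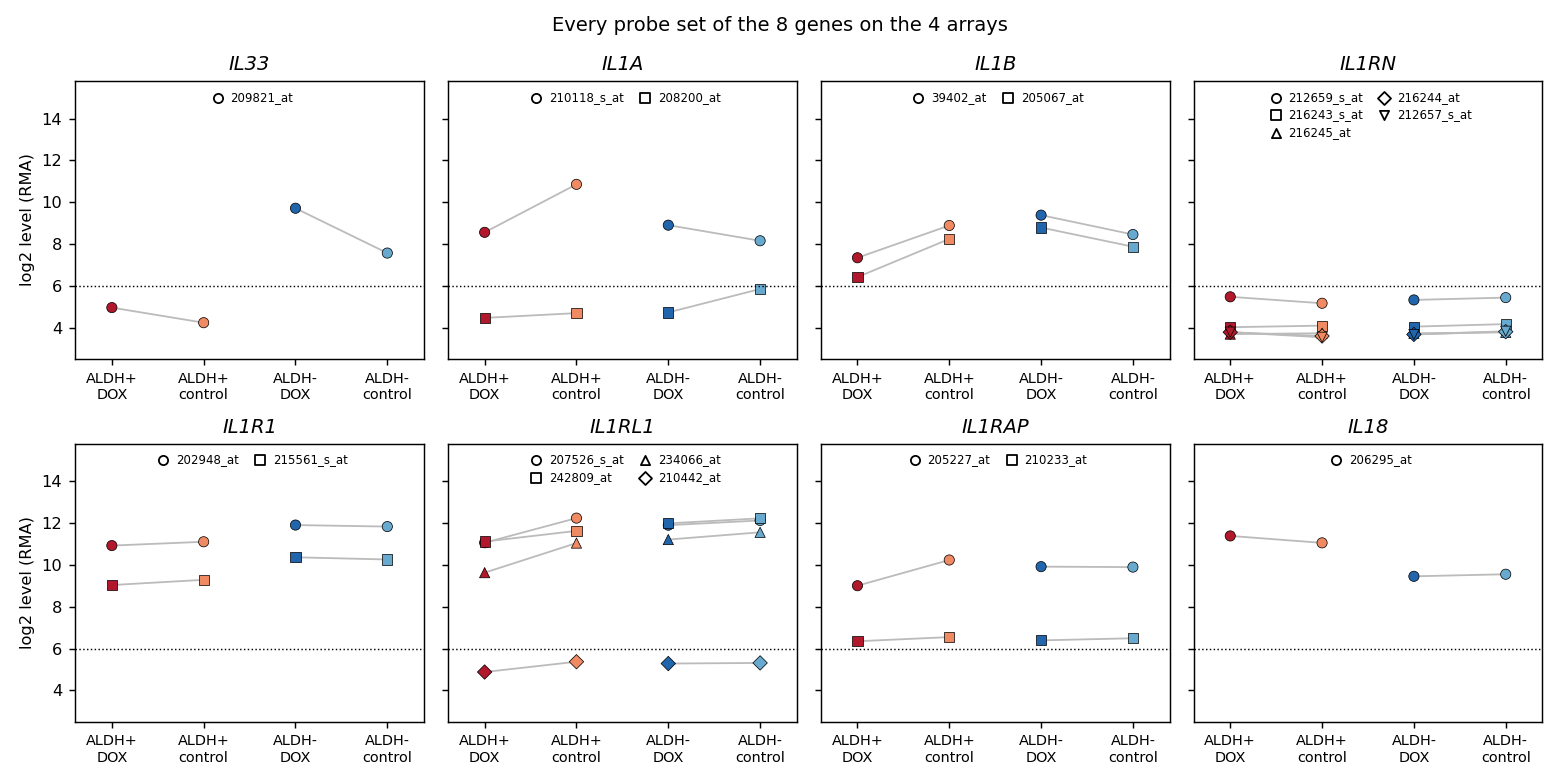
Log2 levels (RMA) of all 19 probe sets of the 8 genes on the 4 arrays. Each point is 1 array, each marker shape a probe set, grey lines join DOX and control of a fraction, and the dotted line is the level of 6. IL33 is above the line in ALDH-negative cells alone, at 9.71 with DOX and 7.57 in control, and all 5 probe sets of IL1RN are below it.

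Among the receptor chains, IL1R1 was lower in ALDH-positive cells. The size was 1.98-fold with DOX and 1.66-fold in control on 202948_at, which stands for the gene, both short of a call. On 215561_s_at it was 2.51-fold and 1.96-fold in the same order. On 202948_at IL1R1 read 10.93 in ALDH-positive DOX cells and 11.11 in ALDH-positive control cells, against 11.91 in ALDH-negative DOX cells and 11.84 in ALDH-negative control cells. On 215561_s_at the same order held, with 9.04 and 9.29 in ALDH-positive DOX and control cells, against 10.37 and 10.26 in ALDH-negative DOX and control cells. DOX and control differed by at most 0.25 on both probe sets in either fraction.

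IL1RL1 was read by 3 probe sets above the limit, and the ALDH-positive DOX array was the lowest on each. On 207526_s_at it read 11.06 in ALDH-positive DOX cells and 12.24 in ALDH-positive control cells, and 11.90 in ALDH-negative DOX cells and 12.13 in ALDH-negative control cells. On 234066_at the levels were 9.63 and 11.05 in ALDH-positive DOX and control cells, and 11.22 and 11.56 in ALDH-negative DOX and control cells. On 242809_at they were 11.12 and 11.63 in ALDH-positive DOX and control cells, and 11.99 and 12.23 in ALDH-negative DOX and control cells. The probe sets differed in size: with DOX, IL1RL1 was lower in ALDH-positive cells by 2.26-fold, 2.67-fold and 1.43-fold in that order, and the last is short of a call. In ALDH-negative cells the same 3 differences were -0.23, -0.35 and -0.24 on the log2 scale. The fourth probe set, 210442_at, stayed at 4.88 to 5.37.

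IL1RAP gave different answers on its 2 probe sets. On 205227_at it read 9.01 in ALDH-positive DOX cells and 10.24 in ALDH-positive control cells, and 9.92 in ALDH-negative DOX cells and 9.90 in ALDH-negative control cells, so that it was 2.35-fold lower with DOX in ALDH-positive cells. On 210233_at it lay between 6.35 and 6.55 on all 4 arrays, close to the limit, and differed by -0.20 with DOX in ALDH-positive cells. The lower IL1RAP level therefore rests on 1 of 2 probe sets.

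For counts over all genes, a gene was represented by its probe set with the highest mean over the 4 arrays, and a difference was called at 2-fold or more with a level of 6 on at least 1 of the arrays compared. In ALDH-positive cells, 4 of the 6 members with such a level were lower with DOX (IL1A, IL1B, IL1RL1 and IL1RAP) and 0 higher, where 5.78% of the 12151 genes compared were called, 2.30% lower and 3.47% higher. IL33 and IL1RN were under the limit on both of these arrays. The count was 2 of these members, IL1A and IL1B, when a gene was the mean of its probe sets, where 246 of 11310 genes were lower. It was 2, IL1B and IL1RAP, without probe sets of the shared kind, where 271 of 9580 genes were lower. With each probe set counted by itself, 1694 of 29790 were lower and 1155 higher. The members' median difference was -1.20, against 0.12 over all genes compared in this pair. That shift of all genes is above 0, so that relative to it the 4 genes lay slightly further down. In ALDH-negative cells, 1 of 7 members, IL33, was higher and 0 lower, where 0.322% of 11819 genes were called, 0.271% higher and 0.0508% lower. The members' median there was 0.07, against -0.00 over all genes compared.

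The DOX difference in ALDH-positive cells minus that in ALDH-negative cells was -3.04 for IL1A, -2.47 for IL1B, -1.42 for IL33 and -1.25 for IL1RAP. These were 4 of 7 members past 2-fold downward, with 0 upward, where 6.19% of 12365 genes were past it, 2.40% downward and 3.78% upward. The DOX difference of IL1B lay below 0 in ALDH-positive cells and above 0 in ALDH-negative cells on both of its probe sets. That of IL1A did so on 210118_s_at, but was -1.26 in the ALDH-positive fraction and -0.19 in the ALDH-negative one when its probe sets were averaged, 1 of which was under 6 on all arrays. With averaged probe sets the IL1RAP value was -0.67, short of 2-fold. For IL33 the value is a difference from levels under 6 in ALDH-positive cells, and with those set to 6 it was -2.14. With 1 array a group the difference between the fractions was not tested.

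**Figure D2:**
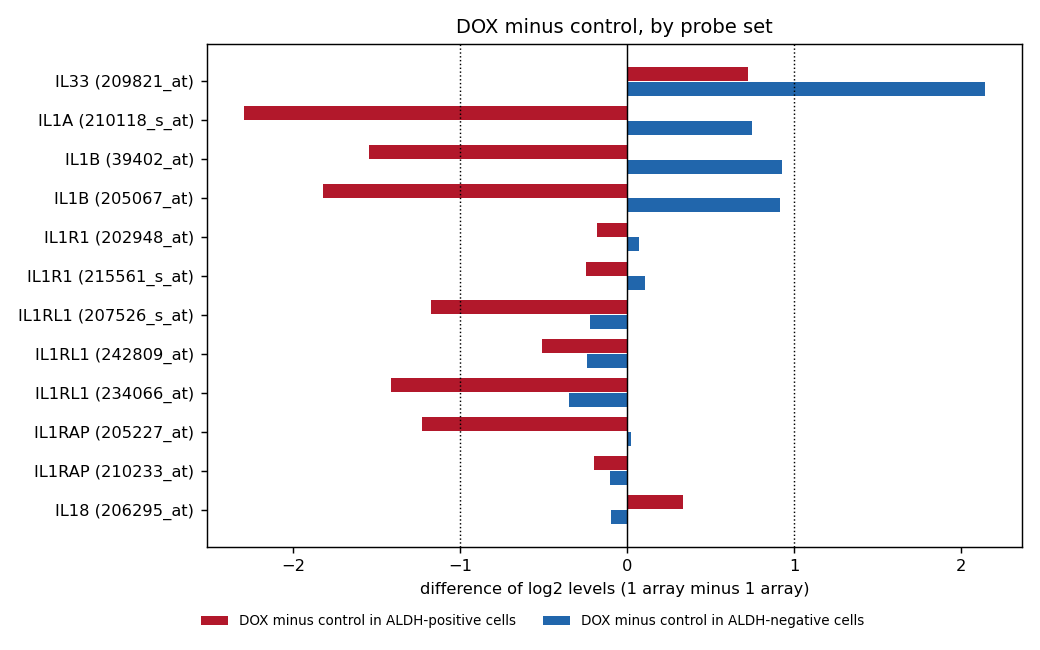
Difference of log2 levels, DOX minus control, for the 12 probe sets of the 7 measurable genes, in ALDH-positive cells (red) and ALDH-negative cells (blue). Each bar is 1 array minus 1 array, and dotted lines mark 2-fold. The 3 bars of IL1A and IL1B point down in ALDH-positive cells and up in ALDH-negative cells. The red IL33 bar compares 2 levels under 6 and gives no direction.

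Between the fractions without DOX, IL1A was 6.49-fold and IL18 2.83-fold higher in ALDH-positive cells, and IL33 was lower. IL1A was at 0.77 on the log2 scale, short of a call, when its probe sets were averaged. These were 2 and 1 of 7 members, where 10.5% of 12052 genes were called, 6.09% higher and 4.40% lower. With DOX, IL18 was 3.82-fold higher, and IL33 and IL1B were lower, IL1B by 4.11-fold. These were 1 and 2 of 7 members, where 16.7% of 12228 genes were called, 11.4% higher and 5.32% lower. IL1A differed by -0.34 on the log2 scale with DOX. IL33 entered both comparisons through its ALDH-negative levels alone. The members' median difference was -0.91 with DOX, against 0.08 over all genes, and 0.34 in control, against -0.00 over all genes.

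The mean difference between the fractions was tested with limma on all 12365 genes and all 4 arrays, in an additive model of fraction and treatment. It left 1 residual degree of freedom per gene, each treatment serving as the repeat of the other, and nothing in the labels says that the arrays come from separate cultures, so that the spread behind its p-values may be technical. IL33 was lower in ALDH-positive cells, at -4.04 ± 0.34 (log2, SE, limma adjusted p = 1.41e-05), and so was IL1R1, at -0.85 ± 0.17 (SE, limma adjusted p = 0.0032). IL18 was higher by 1.72 ± 0.23 (SE, limma adjusted p = 0.000248). Each of the 3 went the same way in both pairs of arrays, the same pairs whose agreement sets the model's error. These were 1 member higher and 2 lower of 7 tested, where 23.1% of all genes passed at an adjusted p under 0.05, 13.5% higher and 9.58% lower. IL33 entered this test through its ALDH-negative levels alone, and with levels under 6 set to 6 it was at -2.64 (limma adjusted p = 0.00198).

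IL1A, at 1.18 ± 0.50 (SE, limma adjusted p = 0.109), and IL1B, at -0.80 ± 0.44 (SE, limma adjusted p = 0.209), did not pass, and neither did IL1RL1 or IL1RAP. When each probe set was tested by itself over all probe sets, both IL1R1 probe sets passed, and so did 2 of the 3 measurable ones of IL1RL1. These were 242809_at at -0.74 ± 0.15 (SE, limma adjusted p = 0.0214) and 234066_at at -1.05 ± 0.27 (SE, limma adjusted p = 0.0441), while 207526_s_at was at -0.36 (limma adjusted p = 0.303).

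For the mean DOX difference over both fractions, the same limma model passed 0 of 7 members at an adjusted p under 0.05 and 2, IL33 and IL1RL1, at an unadjusted p under 0.05, of which IL33 entered through its ALDH-negative levels alone. Over all genes it passed 1 of 12365 adjusted (0.00809%), and 5.27% unadjusted. IL33 was at 1.43 ± 0.34 (SE, limma adjusted p = 0.773), a mean that takes in the ALDH-positive levels under 6, and at 1.07 with those set to 6 (limma adjusted p = 0.934). IL1RL1 was at -0.70 ± 0.19 (SE, limma adjusted p = 0.808). The model counts a response that differs between the fractions as error, as for IL1A and IL1B.

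**Figure D3:**
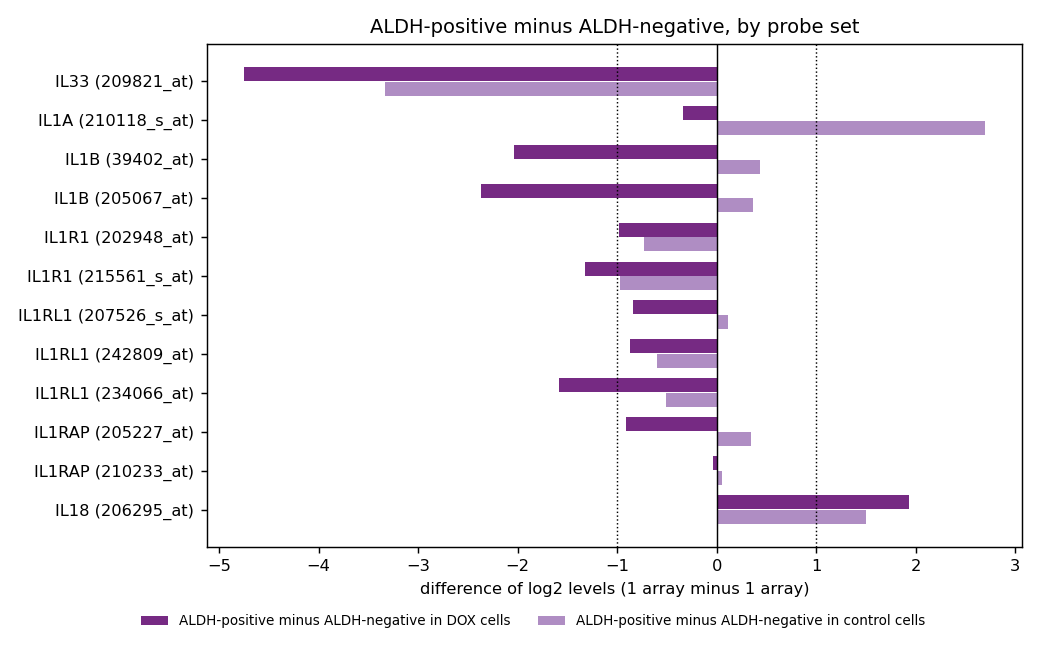
Difference of log2 levels, ALDH-positive minus ALDH-negative, for the same 12 probe sets, in DOX cells (dark) and control cells (light). Each bar is 1 array minus 1 array, and dotted lines mark 2-fold. IL33 and IL1R1 point down and IL18 points up in both pairs, while IL1A is at 2.70 in control and -0.34 with DOX.

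Related genes were grouped by role. Of 6 other IL-1 family ligands, IL37 alone reached a level of 6, and it was not called in any pair. It lay close to the limit, at 6.23 to 6.44, on a probe set of the shared kind. Of 8 other receptors and inhibitors, 5 were measurable and 0 called in any of the 4 pairs, where 0.322% to 16.7% of all genes were. In ALDH-positive cells the furthest with DOX were SIGIRR, a receptor that dampens IL-1 signalling, at 0.71, and IL18RAP, the accessory chain of the IL-18 receptor, at 0.64. In ALDH-negative cells IL18RAP was at 0.63 as well. IL18BP, the secreted inhibitor of IL-18, differed by 0.91 between the fractions with DOX and by 0.39 in control.

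Of 16 signal transducers, 14 were measurable. With DOX in ALDH-positive cells 1 was lower, PELI2, an E3 ligase that binds IRAK kinases, at -1.61, and 0 were higher, where 2.30% of all genes compared were lower and 3.47% higher. The list's median was 0.15, against 0.12 over all genes compared. In ALDH-negative cells 0 were called, where 0.322% of all genes were, with a median of 0.01. TAB1, a partner of the kinase encoded by MAP3K7, was higher in ALDH-positive cells by 1.09 with DOX, 1 of 14 where 11.4% of all genes were higher. Between the fractions in control 0 transducers were called, where 10.5% of all genes were. In the limma model 0 of 14 passed for the ALDH or the DOX term, where 23.1% and 0.00809% of all genes passed. MYD88, the adaptor of these receptors, was at -0.62 ± 0.23 for the ALDH term (SE, limma adjusted p = 0.0745).

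Of 14 genes of processing and release, 11 were measurable, and PYCARD and NLRP3, parts of an inflammasome, and CASP5 were under 6 on all arrays. Between DOX and control 0 of the 11 were called in either fraction. Of all genes compared, 5.78% were called in ALDH-positive cells and 0.322% in ALDH-negative cells. Between the fractions NLRP1, an inflammasome sensor, was higher in ALDH-positive cells by 1.05 with DOX, 1 of 11 where 11.4% of all genes were higher. In the limma model CASP4 (0.85 ± 0.21, SE, limma adjusted p = 0.0127), an inflammatory caspase, and NLRP1 (0.93 ± 0.28, SE, limma adjusted p = 0.0311) were higher in ALDH-positive cells. S100A13, which takes part in the release of IL-1 alpha, was lower (-0.73 ± 0.15, SE, limma adjusted p = 0.00488). These were 2 higher and 1 lower of 11, where 13.5% of all genes were higher and 9.58% lower. CASP1, the protease that activates IL-1 beta and IL-18, was at -0.48 ± 0.18 (SE, limma adjusted p = 0.0746). CASP1, CASP4 and NLRP1 were read on probe sets of the shared kind.

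Genes that IL-1 induces in many cells were lower with DOX in ALDH-positive cells for 4 of 13 measurable ones, and 0 were higher, where 2.30% of all genes compared were lower and 3.47% higher. These were the chemokines CCL20 (-2.54) and CXCL8 (-2.09), the cytokine IL6 (-1.98) and PTGS2 (-1.30), the inducible prostaglandin synthase, which was at -0.99 with levels under 6 set to 6. The list's median was -0.86, against 0.12 over all genes compared. In ALDH-negative cells 1 of 16 was called, where 0.322% of all genes were, and the median was -0.04. The called gene was the chemokine CCL2, on a probe set of the shared kind, higher by 1.90, or 1.23 with levels under 6 set to 6. CCL20 read 7.18 in ALDH-positive DOX cells and 9.72 in ALDH-positive control cells, against 9.78 in ALDH-negative DOX cells and 9.79 in ALDH-negative control cells. The ALDH-positive DOX array alone stood apart, as it did for CXCL8, on a probe set of the shared kind, at 9.85 there, against 11.94 in ALDH-positive control cells and 11.89 and 11.93 in ALDH-negative DOX and control cells.

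ALDH-positive DOX cells had 2 of 16 such genes higher and 8 lower than ALDH-negative DOX cells, where 11.4% of all genes were higher and 5.32% lower. Among control cells 3 of 15 were higher and 4 lower in the ALDH-positive fraction, where 6.09% of all genes were higher and 4.40% lower. LIF (1.11 with DOX, 1.59 in control), a cytokine of the IL-6 family, was higher in both pairs. So was the adhesion molecule ICAM1 (1.00 with DOX, 1.41 in control), on a probe set of the shared kind. The collagenase MMP1 (-5.77 with DOX, -5.92 in control) and the stromelysin MMP3 (-3.39 with DOX, -3.60 in control) were lower in both, with both ALDH-positive levels under 6. PTGS2 (-1.98 with DOX, or -1.66 with levels under 6 set to 6, and -1.31 in control) and CSF3 (-1.23 with DOX, -1.63 in control), a colony-stimulating factor, were lower in both as well. IL6 was higher in control, at 1.53, and at -0.12 with DOX. Counted from 6, MMP1 differed by -4.20 with DOX and -4.13 in control, and MMP3 by -1.97 with DOX and -1.89 in control. In the limma model 2 of 16 were higher and 8 lower for the ALDH term, where 13.5% of all genes were higher and 9.58% lower. Among these 8, CXCL8 and CCL20 differed by 0.01 and -0.06 in control, so that their mean difference comes from the pair with DOX. MMP1 and MMP3 entered through their ALDH-negative levels alone. For the DOX term 0 passed, where 0.00809% of all genes did. The list was written with earlier results on several of these genes known, and its counts describe these arrays.

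**Figure D4:**
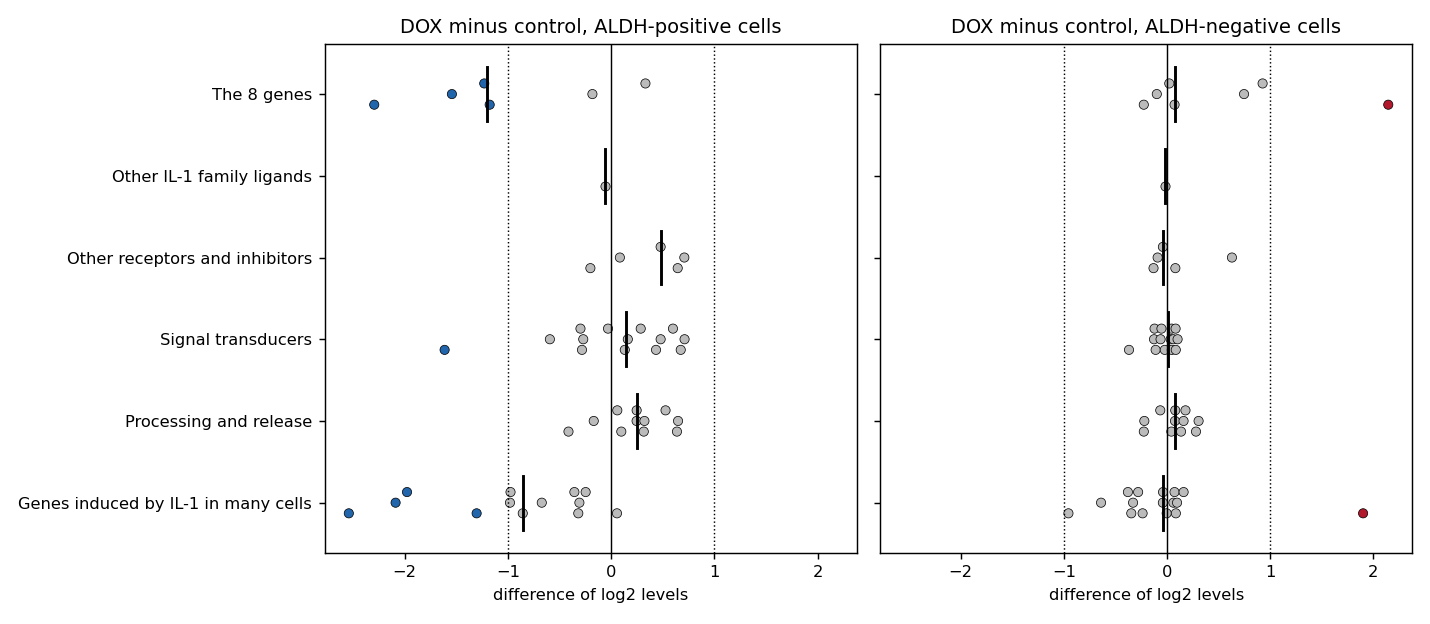
Difference of log2 levels, DOX minus control, for each measurable gene of the 8 and of the related lists, in ALDH-positive cells (left) and ALDH-negative cells (right). Each point is 1 gene, blue if called lower, red if called higher and grey otherwise, black bars are list medians and dotted lines mark 2-fold. In ALDH-positive cells the medians are -1.20 for the 6 measurable members and -0.86 for genes induced by IL-1, and the blue points are 4, 1 and 4 in the members, the transducers and the induced genes.

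Genes with a pattern like a member's were sought among the 12365 measurable genes by the root mean square difference over the 4 arrays, after each gene's mean was subtracted. For IL33 the nearest were IGF2BP3 (0.71), ADGRG1 (0.72) and P2RY8 (0.74), on profiles in which IL33 is under 6 on 2 of the 4 arrays. For IL1B they were SLC2A13 (0.11), H1-4 (0.21) and RNF19B (0.24), and for IL1A SAMD13 (0.28), TMEM169 (0.29) and ZNF501 (0.33), which were above a level of 6 in ALDH-positive control cells only. FBXO45 (0.03), FCAR (0.03) and MYC (0.05) were nearest to IL1RL1, FZD6 (0.02), PPIL4 (0.06) and LINC02076 (0.06) to IL1RAP, and GABPB1-AS1 (0.03), DNAL4 (0.04) and ISG20 (0.05) to IL18. The search used 1 probe set for each gene, 207526_s_at for IL1RL1 and 205227_at for IL1RAP. The other measurable probe sets of these genes had other patterns. On 242809_at and 234066_at of IL1RL1 both ALDH-negative arrays stood above both ALDH-positive ones, and 210233_at of IL1RAP lay between 6.35 and 6.55. IL1R1 ranged over less than 1 across the arrays on its brighter probe set and was not searched, nor was IL1RN.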

How the data were processed

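RNA of 4 groups was hybridised to 1 Affymetrix array each. The deposited values are log2 probe set levels, made by the authors with RMA, per the submitters' processing notes, which name no version. RMA in general corrects background, quantile-normalises the arrays and summarises the probes of a set. Array medians lay at 6.18 to 6.22, no further scaling was applied, and the number of arrays limits the precision. GEO's annotation of the array named 41091 of 54675 probe sets with 1 gene, 1801 with several and 11783 with none. Apart from choosing or averaging a gene's probe sets and summing the endothelial markers, levels of different probe sets were not set against each other.

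A gene was represented by its probe set with the highest mean. Calls by size used a log2 difference of 1 and a level of 6. limma 3.58.1 (lmFit, eBayes with trend, prior 11.6 degrees of freedom) in R 4.3.3 gave two-sided p-values adjusted by Benjamini and Hochberg over 12365 genes. It was also run on simulated data with a common spread, taken from the ALDH-negative pair, and equal shifts in both ALDH-positive arrays. That run cannot check the p-values where the spread is wider or the fractions respond differently. The 8 genes, the related lists and the tests were chosen with earlier results of these data known. Genes named were the members, called genes of each list (the 5 largest at most, or the 2 furthest), and the 3 nearest in pattern to each member ranging over 1 or more. MYD88, CASP1 and ICAM1 were named after their values were seen. Alternatives were median centring, cyclic loess, no filter on level, a floor at 6, averaging the probe sets of a gene, leaving out shared ones (names ending in _s_at or _x_at), each probe set by itself, 1.5-fold, and eBayes without trend or with robust estimation. Python 3.11.15, numpy 2.4.6 and pandas 2.3.3 were used.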

Additional observations from a re-analysis of the deposited data

Results flagged for a closer look

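On the probe sets that stand for the genes, DOX and control differed in opposite directions in the 2 fractions for 3 members, with 2-fold or more between these differences. Of these, IL1B alone had opposite signs on every probe set and when its probe sets were averaged. The difference was not tested, since each group held 1 array. For IL1A the DOX difference in ALDH-positive cells minus that in ALDH-negative cells was -3.04, with -2.30 in the ALDH-positive and 0.75 in the ALDH-negative fraction. With its probe sets averaged the signs were the same, at -1.26 and -0.19. For IL1B it was -2.47, with -1.54 and 0.93 in the same order, and its other probe set had these signs too. For IL1RAP it was -1.25, with -1.23 and 0.02, the second being close to 0, and its other probe set went the same way in both fractions, at -0.20 and -0.10.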

How the results depend on the processing

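The 7 counts of members were recomputed under 8 or 9 alternatives each, 58 values in all, of which 53 stayed within 1.5 times. When the probe sets of a gene were averaged, 2 members were called lower with DOX in ALDH-positive cells (IL1A and IL1B) in place of 4, and without shared probe sets 2 as well (IL1B and IL1RAP). Over all genes 246 of 11310 were lower when averaged, and 271 of 9580 without shared probe sets. Averaging also ended the calls of IL1A between the fractions in control (0.77) and of IL1RAP for the difference between the DOX differences (-0.67), and turned the uncalled DOX differences in ALDH-negative cells of IL1A to -0.19 and of IL1RAP to -0.04. At 1.5-fold, 3 members were called with DOX in ALDH-negative cells (IL33, IL1A and IL1B) in place of 1, where 209 of 11819 genes were called. Between the fractions with DOX 6 were called in place of 3, 1 higher and 5 lower. There 4347 of 12228 genes were called, 2805 higher and 1542 lower. With each probe set by itself, 5 members were called between the fractions with DOX, IL1R1 and IL1RL1 being added. Each member was taken there by its measurable probe set with the largest difference. Of all probe sets compared, 5694 of 30098 were called, 3141 higher and 2553 lower. Without shared probe sets IL1A rested on a probe set under a level of 6 and turned its sign, to -1.15 between the fractions in control and 0.89 for the difference between the DOX differences. These are differences under the limit and give no direction. IL33, IL1R1 and IL18 passed the ALDH term of the limma model under all 9 alternatives, with adjusted p up to 0.00894 for IL33, 0.0486 for IL1R1 and 0.0171 for IL18. IL1RL1 passed the ALDH term without shared probe sets, at -0.74 (limma adjusted p = 0.00492), and on its probe set of lowest p. No member passed the DOX term under any of the 9. Over all genes, eBayes without trend passed 998 higher and 529 lower for the ALDH term, and no filter on level 767 and 410, in place of 1672 and 1184. The 38 genes called with DOX in ALDH-negative cells became 24 with a floor at 6 and 21 with averaged probe sets. At 1.5-fold the size calls over all genes were 2609 in place of 702 with DOX in ALDH-positive cells, 209 in place of 38 in ALDH-negative cells, 3142 in place of 1264 between the fractions in control, 4347 in place of 2046 with DOX, and 2754 in place of 765 for the difference between the DOX differences. By probe set they were 2849, 106, 3275, 5694 and 3149 in the same order. With DOX in ALDH-positive cells, 1694 of 29790 probe sets were lower and 1155 higher, whereas 280 genes were lower and 422 higher. For the difference between the DOX differences, 1745 of 30732 probe sets were downward and 1404 upward, whereas 297 genes were downward and 468 upward. The balance of directions over all features therefore depends on the probe sets counted. The 1 gene passing the DOX term became 0 under cyclic loess, no filter, a floor at 6, no trend and by probe set. The additive model compared the fractions within each treatment, and DOX with control within each fraction. Beyond that, no paired analysis was possible because each group held 1 array and the labels number no replicates. Signal near the limit of 6 restricts IL33 in ALDH-positive cells and all of IL1RN.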
